A study of Mus musculus with 3 samples.

Results

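SR proteins, heterogeneous nuclear ribonucleoproteins (hnRNPs) and CDC-like kinases (CLKs) were taken as 1 set of splicing regulators: the protein-coding genes whose symbol starts with Srsf or Hnrnp, leaving out 1, together with Tra2a, Tra2b and Clk1 to Clk4. The rule gave 36 genes of 55418 gene symbols, 21877 of them protein-coding: 13 SR genes with the Tra2 pair included, 19 hnRNP genes and 4 kinase genes. The libraries came from macrophages grown from bone marrow of C57BL/6J mice, exposed to lipid A, the part of lipopolysaccharide that activates Toll-like receptor 4, at 100 ng/ml for 90 min. RNA was taken from the cytosolic fraction, ribosomal RNA was depleted and the remaining total RNA was sequenced. All 3 libraries belong to this single group and are numbered as biological replicates 1, 2 and 3, but their labels name the same donor record, so spread between them may include only part of the animal-to-animal variation. Untreated cells, nuclear RNA and other times were not analysed here, so every comparison below sets the members against other genes of the same libraries, not against another condition.

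SR proteins bind exonic enhancers through an RNA recognition motif and recruit splicing factors through a domain rich in arginine and serine. hnRNPs coat nascent RNA, and many of them repress exons, while CLK kinases phosphorylate the arginine and serine residues and release SR proteins from nuclear speckles. Many of these genes control their own level: the protein favours a spliced form that carries a premature stop codon and is a target of nonsense-mediated decay, the cytoplasmic pathway that removes such messages, or a form that keeps an intron and stays in the nucleus.

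The annotation (GENCODE M21, mouse build mm10) gave 42 transcripts of the nonsense-mediated decay class to 24 members. In 15 of them, from 9 members, the stop codon lay in an exon that no coding transcript of the gene has, called a poison exon below. They are shown because Hnrnpll, Srsf4 and Srsf3, all called for their decay share below, had most of it on such a transcript, while the leading decay transcripts of the other called members do not have their stop codon in an exon of their own. The 6 with the highest level, 1 for each gene, are printed from the 5′ end of the exon to the stop codon, on the strand of the gene, with the stop codon in capitals. The whole exons lie at chr17:80044940-80045022 (minus strand, 83 bases) for Hnrnpll, chr17:29039454-29039909 (plus strand, 456 bases) for Srsf3 and chr16:22258986-22259261 (minus strand, 276 bases) for Tra2b. Those of Srsf4, Hnrnpl and Tra2a lie at chr4:131884295-131884482 (plus strand, 188 bases), chr7:28817335-28817404 (plus strand, 70 bases) and chr6:49252803-49253108 (minus strand, 306 bases).
Hnrnpll-203: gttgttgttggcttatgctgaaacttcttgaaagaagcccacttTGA
Srsf3-201: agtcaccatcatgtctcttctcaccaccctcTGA
Tra2b-206: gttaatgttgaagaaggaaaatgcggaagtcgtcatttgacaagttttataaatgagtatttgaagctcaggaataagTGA
Srsf4-204: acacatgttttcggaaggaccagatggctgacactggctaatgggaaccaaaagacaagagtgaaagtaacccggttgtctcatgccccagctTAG
Hnrnpl-213: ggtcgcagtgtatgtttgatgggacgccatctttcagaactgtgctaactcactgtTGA
Tra2a-202: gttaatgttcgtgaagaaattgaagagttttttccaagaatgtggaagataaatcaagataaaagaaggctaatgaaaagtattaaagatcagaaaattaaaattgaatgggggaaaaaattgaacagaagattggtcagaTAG

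Transcripts of the retained-intron class were annotated for 27 members, 101 in all, and 40 of them keep a whole intron of a coding transcript. The ends of 3 such introns are printed as examples, with the intron's first and last dinucleotide in capitals. Each comes from an SR gene whose retained-intron level was led by the transcript that keeps the intron. The introns lie at chr12:80947866-80949094 (plus strand, 1229 bases) in Srsf5, chr17:29038625-29040774 (plus strand, 2150 bases) in Srsf3 and chr2:162932143-162933425 (plus strand, 1283 bases) in Srsf6. Srsf1-203, described below, also keeps a whole intron, of 378 bases, and is not printed. The Srsf3 intron holds the poison exon printed above, so Srsf3-204, which keeps it, contains the bases of that exon. Intron bases before the exon are kept too, and whether the frame of Srsf3-204 reads the same stop codon was not examined.
Srsf5-212, 5′ end: GTttgttgaaatacagtttt
Srsf5-212, 3′ end: ctctccttaacataattgtcttgtgttaAG
Srsf3-204, 5′ end: GTacttgagagagcaccttt
Srsf3-204, 3′ end: ttagcctaattttactgtttctgcttctAG
Srsf6-204, 5′ end: GTgagtccttacccccgcgc
Srsf6-204, 3′ end: gcatctaattactcccttcatgtgataaAG

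The libraries held 33821479, 47843161 and 59390843 expected counts, the estimated number of reads given to transcripts. All 12 listed macrophage markers were above the reference defined below, led by Lyz2 at 4347 ± 1009 TPM (SD, n = 3). Summed TPM of the T and NK cell markers was 0.22 to 0.29, of the B cell markers 0.37 to 0.70, of the fibroblast markers 0.07 to 0.18 and of the erythroid markers 0 to 0.07. The neutrophil markers summed to 24.4 to 41.9 TPM, mostly from S100a8 and S100a9, while Mpo, Elane and Ly6g were each under 0.3 TPM in every library. Ngp was at 2.40, 2.54 and 4.14 TPM, Ltf at 0.62, 0.55 and 1.62 TPM and Camp at 0.13, 0.25 and 0.41 TPM. Among nuclear-retained long noncoding RNAs, Malat1 was at 128, 335 and 913 TPM and Neat1 at 12.9, 24.1 and 66.9 TPM in replicates 1, 2 and 3. Tug1, of the same list, was at 19.2, 15.2 and 15.8 TPM, highest in replicate 1. Xist (2.16, 2.97 and 10.3 TPM), Firre (0.71, 1.03 and 2.02 TPM) and Airn (0.40, 0.35 and 0.85 TPM) were highest in replicate 3. So was Kcnq1ot1, at 0.01, 0.02 and 0.05 TPM. In bulk RNA, fewer cells of a type and less RNA per cell cannot be told apart.

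Most members were well expressed in the cytosol of the activated macrophages, with the median hnRNP gene above the median SR gene and kinase. Levels are gene TPM, a relative abundance scale that corrects for transcript length and so allows genes to be compared. The median member of the hnRNP group was at 30.6 ± 2.86 TPM, of the SR group at 13.5 ± 0.783 TPM and of the CLK group at 7.92 ± 1.12 TPM (SD over libraries, n = 3). Each gene was set against a reference, the middle value of the 8740 protein-coding genes that averaged 1 TPM or more, which was 7.39, 6.09 and 6.21 TPM in the 3 libraries. A gene was called when the adjusted p of limma's one-sample moderated test was under 0.05 and the log2 difference was at least 1. Of the 35 members tested, 23 were called above the reference and 1 below. Over all 13327 genes tested 20.4% were called above and 50.6% below, and over the protein-coding genes among them 23.4% and 43.7%. By group the calls above numbered 7 of 12 SR genes, 15 of 19 hnRNP genes and 1 of 4 kinases. The p-values measure only the spread between these 3 libraries.

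**Figure D1:**
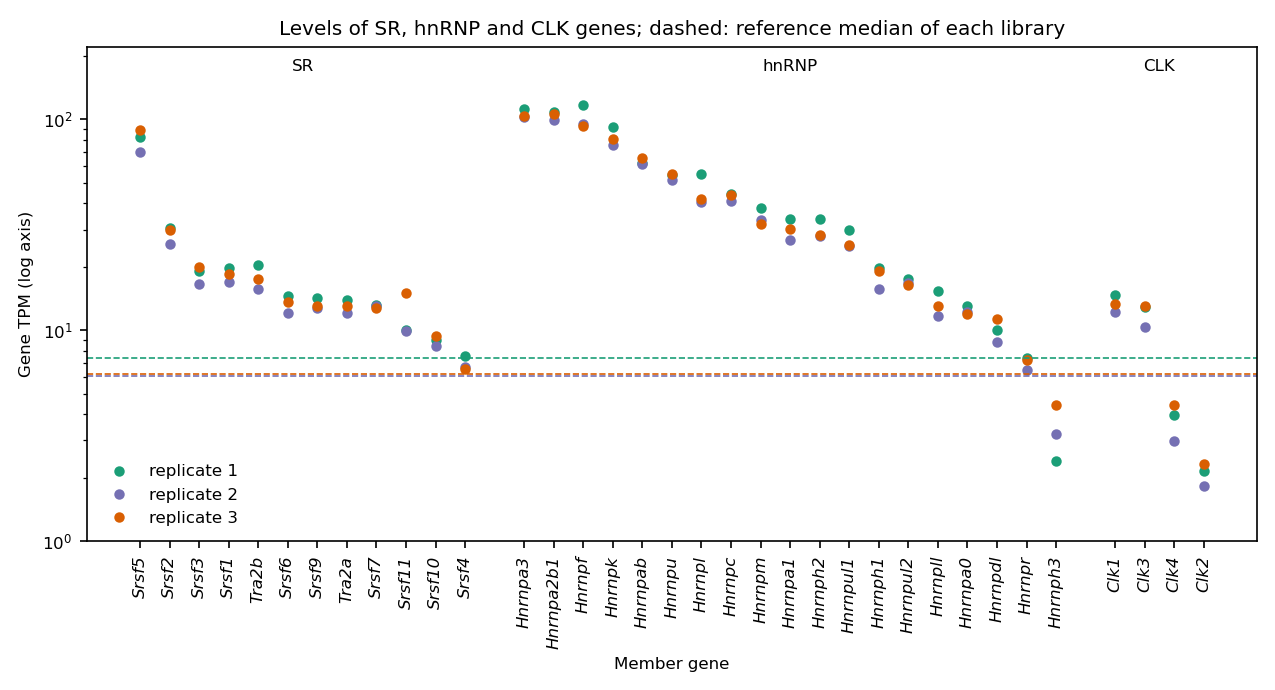
Gene TPM (log axis) of the 35 members above 0 in each of the 3 libraries (1 point per library), by group and in order of mean level; dashed lines are the reference median of each library. Hnrnpa3, Hnrnpa2b1 and Hnrnpf lead near 100 TPM, Srsf5 stands apart from the other SR genes, and Hnrnph3, Clk4 and Clk2 lie below all 3 reference lines.

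Among SR genes, Srsf5 was the most abundant, with 82.5, 70.2 and 89.0 TPM in replicates 1, 2 and 3. Its 3 values did not overlap those of any other SR gene, and its log2 difference from the reference was 3.60 ± 0.098 (SE, adjusted p = 4.65e-05, limma with Benjamini-Hochberg adjustment over all genes). Srsf2, a factor that also acts in transcription elongation, followed at 30.4, 25.6 and 29.9 TPM (log2 difference 2.11). Srsf3, the smallest SR protein and an adaptor for mRNA export, was at 19.1, 16.6 and 20.0 TPM, and its range overlapped that of Srsf1, a shuttling regulator of splicing and translation, at 19.6, 17.0 and 18.4 TPM. Tra2b and Tra2a encode the homologues of fly transformer 2, which activate exons rich in purines. Tra2b was at 20.3, 15.7 and 17.6 TPM, overlapping Srsf3 and Srsf1 and 1.43 above the reference on the log2 scale. Tra2a was at 13.9, 12.02 and 13.0 TPM, below Tra2b in each library, and its log2 difference of 0.98 fell just short of the required 1. Srsf6 (13.4 ± 1.19 TPM), Srsf9 (13.3 ± 0.832 TPM) and Srsf7 (13.0 ± 0.255 TPM) could not be ordered beyond their spread. The first 2 of them were called at log2 differences of 1.02 and 1.01, and Srsf7 at 0.98 was not. The lower SR genes were Srsf11 at 11.6 ± 2.89, Srsf10 at 8.93 ± 0.512 and Srsf4 at 6.92 ± 0.514 TPM, none of them called. Srsf12 was listed at 0 TPM in all 3 libraries and was not tested.

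The hnRNP genes held the highest levels of the set. Hnrnpa3, an A/B-type hnRNP close in sequence to Hnrnpa1, was at 112, 103 and 104 TPM, 3.9998 ± 0.062 above the reference on the log2 scale (SE, adjusted p = 3.17e-05). Hnrnpa2b1, known for sorting RNA into transport granules and vesicles, was at 108, 99.3 and 105 TPM. Hnrnpf, which binds runs of G, was at 117, 95.4 and 93.2 TPM. The ranges of these 3 genes overlapped, so their order is not settled. Hnrnpk, a protein that binds C-rich RNA and DNA, followed at 92.1, 75.3 and 80.7 TPM, and its range overlapped that of Srsf5. Hnrnpab was at 62.0, 61.2 and 65.7 TPM and Hnrnpu, a scaffold protein that binds chromatin-associated RNA, at 54.5, 51.3 and 54.9 TPM. These last values of Hnrnpab and Hnrnpu did not overlap. From Hnrnpl (45.9 ± 8.02 TPM) and Hnrnpc (43.0 ± 1.84 TPM) down to Hnrnpll (13.4 ± 1.86 TPM) 9 more genes were called, with log2 differences between 1.01 and 2.78. Hnrnpa0 (12.4 ± 0.546 TPM), Hnrnpdl (10.01 ± 1.23 TPM) and Hnrnpr (7.03 ± 0.489 TPM) were not. The lowest hnRNP gene was Hnrnph3, with 2.40, 3.21 and 4.43 TPM. All 3 of its values lay below the reference, highest in replicate 3, and the log2 difference of -0.99 ± 0.25 did not reach the required size (adjusted p = 0.0216).

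The 4 kinases formed 1 higher pair and 2 lower genes. Clk1 was at 14.6, 12.2 and 13.4 TPM and Clk3 at 12.8, 10.3 and 13.0 TPM, with ranges that overlapped. Clk4 was at 3.95, 2.97 and 4.42 TPM and Clk2 at 2.14, 1.82 and 2.33 TPM, and neither range overlapped the other or those of Clk1 and Clk3. Clk1 was called above the reference by 1.02 ± 0.058 and Clk2 below it by -1.60 ± 0.099 on the log2 scale (SE, adjusted p = 2.42e-04 and 3.05e-04), while Clk3 (0.86) and Clk4 (-0.79) were not called. Without replicate 3 the calls of Clk1, Srsf6 and Hnrnpll were lost, and without replicate 1 that of Hnrnpll. Clk1, Srsf6, Srsf9 and Hnrnpll rested on the choice of reference: against genes of at least 5 TPM their log2 differences were between -0.016 and -0.0075, and 13 members in place of 23 were called above. All 4 also lost the call in the second quantification, where 16 members were called above, and with a pseudocount of 1 TPM, where 19 were.

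Genes that work with the members showed a mixed pattern. Of 13 genes for other SR protein kinases, the phosphatase that reverses them and nuclear import or export, 12 were tested, 4 were above the reference and 1 below. The highest were the phosphatase subunits Ppp1ca (56.9 ± 10.7 TPM), Ppp1cc (47.5 ± 10.4 TPM) and Ppp1cb (20.8 ± 0.647 TPM), and the lowest Srpk2 (3.79 ± 0.163 TPM), Ppp1r8 (2.05 ± 0.269 TPM) and Srpk3 (0.07 ± 0.0173 TPM). Of 39 other splicing regulators 32 were tested, 23 were above and 5 below, from Pcbp2 (128 ± 28.9 TPM), Mbnl1 (110 ± 19.4 TPM) and Pcbp1 (53.0 ± 8.07 TPM) down to Nova1, Nova2 and Esrp1, each listed at 0. Of 30 core spliceosome genes 11 were above and 2 below, led by Sf1 (35.0 ± 1.71 TPM), Sf3b2 (29.8 ± 2.29 TPM) and Sf3b1 (26.9 ± 2.58 TPM), with Sf3a1 (4.38 ± 0.275 TPM), Prpf3 (2.81 ± 0.352 TPM) and Prpf4 (1.18 ± 0.161 TPM) lowest. Of 16 genes of nonsense-mediated decay and the exon junction complex 3 were above and 5 below. The highest of these were Eif4a3 (23.1 ± 3.83 TPM), Rnps1 (15.1 ± 0.838 TPM) and Magoh (13.7 ± 2.21 TPM), and the lowest Upf2 (2.42 ± 0.297 TPM), Smg6 (2.41 ± 0.14 TPM) and Upf3b (1.54 ± 0.0854 TPM). Over the tested genes of each list, the median log2 difference was 1.43 for the members and 1.67 for the other splicing regulators. It was 0.72 for the core spliceosome and -0.28 for the decay genes. With untested genes included, the median TPM was 17.0 ± 1.32 over the members and 16.5 ± 0.771 over the other splicing regulators (SD over libraries, n = 3).

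Decay transcripts made up a large part of the RNA of several members. The measure is the percent of a gene's TPM on transcripts of the nonsense-mediated decay class, and each gene was set against the median share of all tested genes in the same library, which was 1.43%, 1.60% and 1.72%. A call needed an adjusted p under 0.05 and 10 percentage points. Of 24 members tested, 9 were called above the median, against 20.1% of all 2640 genes tested: Hnrnpu, Hnrnpdl, Srsf2, Hnrnpll, Clk4, Srsf4, Hnrnpa1, Hnrnph3 and Srsf3. The median share over the members was 8.94%, 7.18% and 6.68% in replicates 1, 2 and 3. A high share was not limited to the members. Of the genes for other SR protein kinases, phosphatase and transport, 4 of 7 tested were called, with medians of 31.5%, 25.0% and 15.8%. Called were also 3 of 16 other splicing regulators, 1 of 12 core spliceosome genes and 1 of 4 decay genes. Without replicate 2, and likewise without replicate 3, only 4 of the 9 were called (Hnrnpu, Srsf2, Hnrnpll and Srsf4), and without replicate 1 all but Hnrnph3 and Srsf3. All 9 were also called in the second deposited quantification of the same reads, with 11 members called there and 22.1% of 1975 genes.

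Hnrnpu had the highest decay share of the set, 79.3%, 79.8% and 77.8%. The mean was 77.4 points above the library median (adjusted p = 7.36e-04, limma). A single transcript carried it: Hnrnpu-206, 2844 bases long, at 43.3, 40.8 and 42.7 TPM, with deposited bounds of 41.1 to 43.6 TPM in replicate 1. The most abundant coding transcript, Hnrnpu-201, 7640 bases long, was at 10.9, 9.49 and 10.1 TPM, so the decay transcript was the higher in every library. The pair has nearly the same reading frame, of 2379 and 2400 bases. The stop codon of Hnrnpu-206 lies in an exon inside the long last exon of Hnrnpu-201, beyond the stop of that transcript. A further 3 exons of its own follow, with 183 bases from the stop to the last junction. Apart from these 3 exons, every base of Hnrnpu-206 lies within exons of Hnrnpu-201, which held all of the gene's coding TPM. The division of TPM between the pair is thus an estimate from largely shared sequence. How far the share reflects RNA bound for decay was not tested. As TPM divides by length, the share is smaller in reads: by expected counts Hnrnpu was 58.4 points above the median. The second quantification gave 82.1%, 82.0% and 78.1%.

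**Figure D2:**
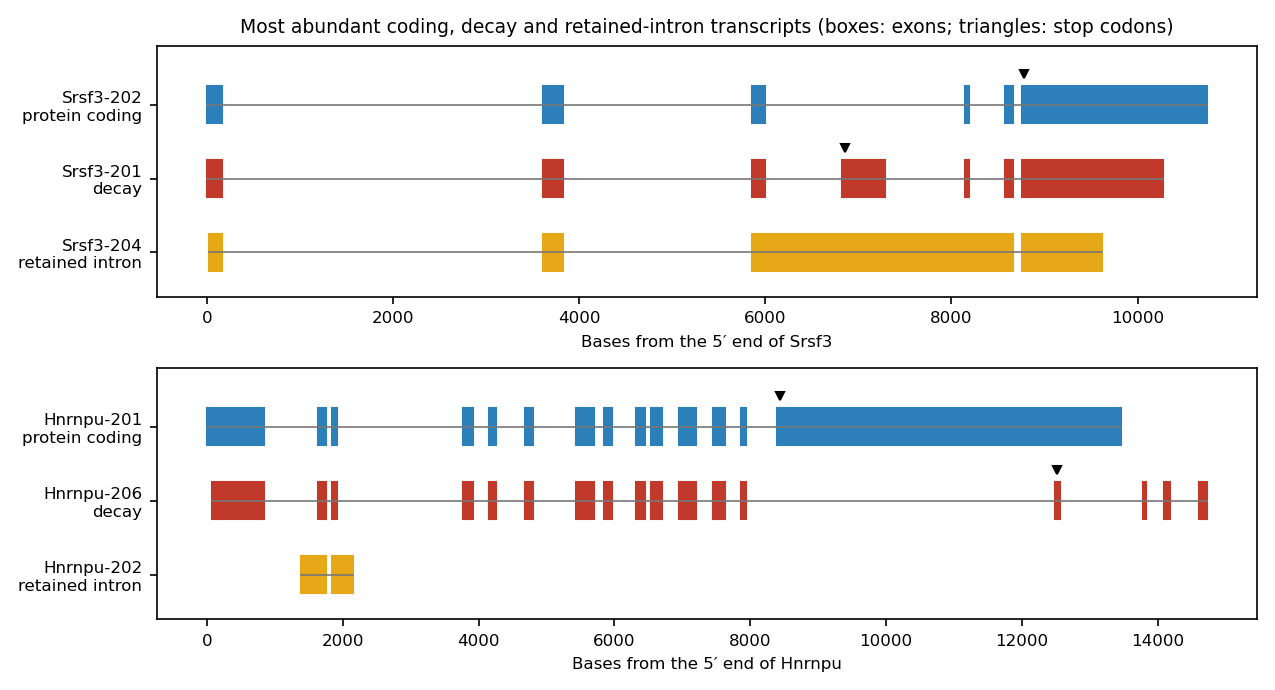
Exons (boxes) and stop codons (triangles) of the most abundant coding, decay and retained-intron transcripts of Srsf3 and Hnrnpu, by distance in bases from the 5′ end of the gene. In Srsf3 the decay transcript adds an exon of 456 bases with an early stop, inside the intron that Srsf3-204 keeps; in Hnrnpu the stop and the last exons of the decay transcript lie beyond the coding stop.

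Among SR genes, Srsf2 had decay shares of 28.7%, 27.4% and 24.6%, and every library was far above its median. Srsf2-204, at 8.72, 7.04 and 7.35 TPM, held this share. This transcript of 620 bases has no base outside the coding exons of the gene, its annotated frame ends at the stop of a coding transcript, and 448 of its bases lie opposite an exon of Mettl23. Srsf2 also shares 288 exon bases with Mfsd11 on the opposite strand (23.6, 25.5 and 21.97 TPM), and no source used here says whether the counting used strand. Srsf4, which has a long arginine and serine domain, was at 16.8%, 15.3% and 17.96%, and its leading decay transcript Srsf4-204 has the poison exon printed above and stood at 1.01, 0.78 and 0.93 TPM. Srsf3 was at 15.7%, 11.2% and 10.1%, highest in replicate 1, and Srsf3-201 accounted for it with 2.99, 1.86 and 2.02 TPM beside 15.3, 13.7 and 15.2 TPM of the coding Srsf3-202. Its difference of 10.8 points was close to the 10 required (adjusted p = 0.015), and leaving out any 1 library ended the call. Tra2b stood just outside, at 11.1%, 9.97% and 10.8%, with Tra2b-206 at 2.21, 1.56 and 1.90 TPM. In the second quantification Tra2b reached 21.02%, 18.9% and 22.5% and was called. Tra2a-202 was lower, at 0.50, 0.53 and 0.63 TPM, and gave Tra2a shares of 3.59%, 4.41% and 4.85%.

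Srsf6 differed most between the quantifications and is named for that, after its values were seen. Its decay share was 14.1%, 3.89% and 6.77% in the first, not called (adjusted p = 0.12), and 54.4%, 48.0% and 46.1% in the second, where it was called (adjusted p = 9.76e-04). Srsf6-201, the transcript behind it, was at 2.04, 0.47 and 0.92 TPM in the first and 4.76, 3.03 and 2.54 TPM in the second, although gene TPM was lower in the second.

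Among hnRNP genes after Hnrnpu, Hnrnpdl had decay shares of 39.7%, 31.8% and 29.1%, from Hnrnpdl-205 at 1.66, 1.5 and 2.25 TPM and Hnrnpdl-201 at 2.31, 1.30 and 1.02 TPM. Hnrnpll, a regulator of CD45 splicing in lymphocytes, was at 20.2%, 21.3% and 23.6%, and its 3 libraries lay close together. Hnrnpll-203, with the poison exon of 83 bases, held all of it at 3.10, 2.49 and 3.07 TPM. In the second quantification the share of Hnrnpll was 34.9%, 37.0% and 36.3%. Hnrnpa1, a repressor of exon inclusion, was at 12.3%, 17.5% and 18.6%, mostly Hnrnpa1-203 at 3.82, 4.32 and 4.51 TPM, which shares its stop codon with a coding transcript and has junctions after it. Hnrnph3 was at 11.2%, 18.4% and 11.0%, highest in replicate 2, at a gene level of only a few TPM. Hnrnpl-213, with the poison exon of 70 bases, was at 0.48, 0.96 and 0.97 TPM and made up 0.871%, 2.36% and 2.32% of Hnrnpl.

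Of the kinases, Clk4 was called for its decay share, 14.4%, 22.2% and 19.3%, which came from Clk4-212 at 0.57, 0.29 and 0.53 TPM and Clk4-204 at 0, 0.37 and 0.32 TPM. Clk2 had a mean share above that of Clk4 but spread widely, 13.6%, 37.9% and 23.2%, and was not called (adjusted p = 0.0504). Clk1 had steady shares of 6.76%, 7.22% and 6.58%, under the 10 points required, nearly all from Clk1-210. Clk3 was at 1.32%, 1.84% and 2.53%, near the library median. The decay transcripts leading Clk1, Clk2 and Clk3 have no base outside coding exons, and so hold no poison exon.

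**Figure D3:**
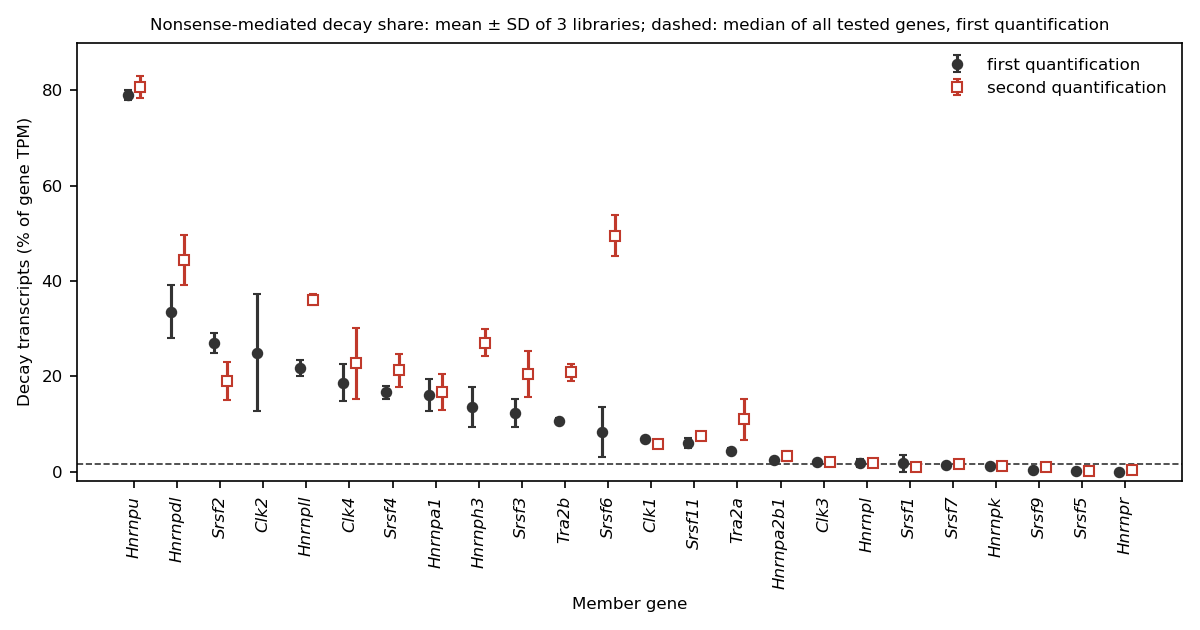
Share of gene TPM on decay transcripts in the first (filled circles) and second (open squares) quantification, mean and SD (bars) of 3 libraries, for the 24 members tested; the dashed line is the median of all tested genes in the first. Hnrnpu lies near 80% in both, Srsf6, Hnrnpll, Hnrnph3 and Tra2b are higher in the second, and Clk2, tested in the first only, has the widest bar beside a mean of 24.9%.

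Retained-intron shares were higher than the typical gene in a few members and varied strongly between libraries. The measure is the percent of a gene's TPM on transcripts of the retained-intron class, with the library medians over all tested genes at 0.843%, 1.49% and 3.06%. Of 27 members tested 5 were called at least 10 points above the median, against 12.3% of 5398 genes: Hnrnpm, Clk3, Clk4, Clk2 and Srsf1. The kinases made up 3 of the 5. Without replicate 3 the calls of Clk2 and Clk4 were lost, and without replicate 1 that of Srsf1. Clk3 was at 17.7%, 16.7% and 30.3%, Clk4 at 15.7%, 10.4% and 25.6%, and Clk2 at 10.7%, 11.5% and 18.9%. In each of these kinases replicate 3 was the highest. Clk1 was at 2.32%, 9.61% and 15.2%, also highest in replicate 3, and was not called (adjusted p = 0.159). In the second quantification Clk3 and Clk4 were called again, at 22.6 ± 6.41% and 21.3 ± 7.73% (SD, n = 3), Clk2 was below the minimum level, Srsf1 was 9.17 points above the median and not called, and 14.5% of 4177 genes were called.

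The transcripts behind these calls were of different kinds. Clk3-202, at 1.90, 1.32 and 3.02 TPM, has 31 of 389 bases outside coding exons, here all exons of the gene's coding transcripts, and its deposited bounds in replicate 1 ran from 0.0915 to 3.999 TPM. Of its bases, 115 lie opposite an exon of Edc3 (1.25, 1.03 and 1.03 TPM). Hnrnpm, known to hold back the processing of inflammatory transcripts in macrophages, was at 28.6%, 25.7% and 22.1%, from Hnrnpm-213 at 10.8, 8.22 and 6.25 TPM, with 115 of 591 bases outside coding exons. In the second quantification Hnrnpm was not called, at 7.19%, 4.92% and 6.37%. Srsf1 was at 14.4%, 11.7% and 12.5%, from Srsf1-203, in which no base lies outside coding exons, since other coding transcripts have exons over the intron that it keeps. Clk2-211 (0.20, 0.16 and 0.24 TPM) and Clk4-213 (0.12, 0.16 and 0.34 TPM) have 70.7% and 77.4% of their bases outside coding exons. Clk4-213 held only a mean 5.38% of Clk4 TPM, out of a mean retained-intron share of 17.3%. Clk4-210, with 6.5% of its bases outside coding exons, held 4.18%, and further transcripts held the rest. With only the transcripts that have at least 200 such bases counted, a rule chosen after seeing the data, 1 member was called, Clk2, against 4.56% of all genes, and Srsf1 was 0.95 points below the library median.

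Srsf11, which encodes an SR-related splicing factor, had the highest mean share but no call, at 16.1%, 24.1% and 44.6% (adjusted p = 0.0684). Replicate 3 was far above the others, and the same library set the gene's level: 10.01, 9.94 and 15.0 TPM in all, of which coding transcripts were 7.88, 6.84 and 7.46 TPM. The coding level thus did not stand out in replicate 3, and retained-intron transcripts did, with 1.61, 2.40 and 6.69 TPM. Srsf11-208, 82.3% of whose 2415 bases lie outside coding exons, was at 0.46, 0.66 and 1.75 TPM. Srsf11 was called in the second quantification, at 29.3%, 32.2% and 44.0% (adjusted p = 0.00238). Hnrnpll was at 6.06%, 12.1% and 21.2% and was not called (adjusted p = 0.0913).

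In Srsf5, Srsf3, Srsf6, Tra2b and Tra2a retained-intron shares were higher than the library median in every library, and none of these genes was called. Srsf1, described above, was the SR gene that was. Srsf5-212, which keeps the intron whose ends are printed above, was at 1.34, 1.90 and 4.52 TPM, and Srsf5 as a whole had shares of 1.88%, 3.07% and 5.73%. Srsf3-204 was at 0.30, 0.50 and 1.13 TPM, and Srsf6-204 at 0.25, 0.33 and 0.94 TPM. All 3 transcripts were highest in replicate 3 and lowest in replicate 1, and their deposited bounds in those libraries did not overlap. Srsf3 had shares of 3.36%, 5.92% and 13.2%, Tra2b of 2.31%, 4.73% and 8.36% and Tra2a of 3.66%, 5.66% and 11.5%. In Tra2a, most came from Tra2a-203 at 0.40, 0.61 and 1.23 TPM, 94.9% of it outside coding exons.

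**Figure D4:**
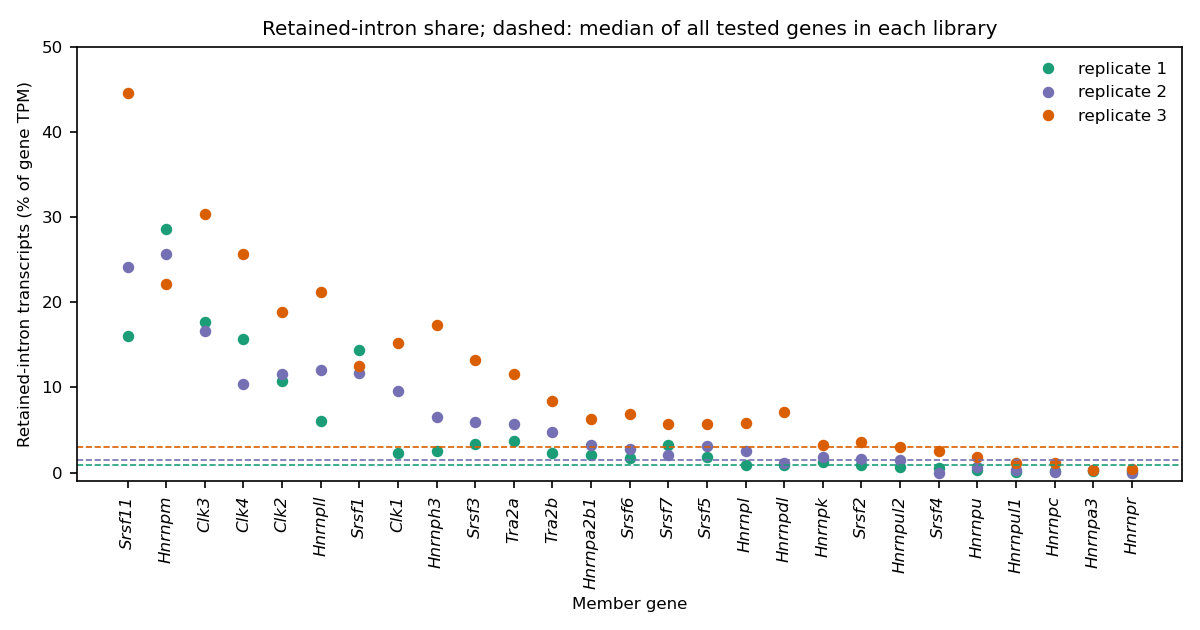
Share of gene TPM on retained-intron transcripts in each of the 3 libraries (1 point per library) for the 27 members tested, in order of mean share; dashed lines are the median of all tested genes in each library. Replicate 3 is the highest point in 24 members; Hnrnpm, Srsf1 and Hnrnpa3 are the exceptions.

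Replicate 3 gave the highest retained-intron share in 24 of 27 members (88.9%), and in 3723 of all 5398 genes tested (69%). For decay shares it was the highest in 8 of 24 members (33.3%) and in 30.8% of 2640 genes. A gene with a share of 0 in every library cannot count as highest in these figures. Retained-intron transcripts were above 0 in replicate 1 in all 27 members but in 4146 of the 5398 genes, so 88.9% and 69% are not fully comparable. In TPM, retained-intron transcripts of the 27 members were a median 3.29-fold higher in replicate 3 than in replicate 1 (0.65 to 14.5), while their coding transcripts were at 0.921-fold (0.636 to 1.54). Over all tested genes the same medians were 2.00-fold, for 4146 genes above 0 in replicate 1, and 0.819-fold. The nuclear RNAs Malat1 and Neat1, with the values given above, were likewise highest in replicate 3 and lowest in replicate 1, as was the sequencing depth. The part of nuclear RNA and of depth in the retained-intron shares was not tested.

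No member was called for variation of its total level between libraries. A test of variation beyond the trend for genes of the same level (edgeR, on expected counts rounded to whole numbers) called 0 of 35 members, against 2.28% of 12330 genes. At an unadjusted p under 0.05 there were 2 members, Srsf11 and Hnrnph3, both highest in replicate 3, and 723 of all 12330 genes, so that neither count sets the members apart, and the count of calls was also 0 with DESeq2 size factors. Of the nuclear-retained RNAs 5 of 7 tested were called. The SD over libraries of the scaled log2 counts had a median of 0.0988 over the members and 0.12 over all genes tested. Srsf11 ranged from 9.94 to 15.0 TPM and Hnrnph3 from 2.40 to 4.43 TPM.

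The second quantification placed gene levels of the members lower, as it did for all genes: its median log2 ratio to the first was -1.02, -1.22 and -1.52 in replicates 1, 2 and 3. After centring on those medians, 0 of 35 members were called higher and 1 lower, against 2.72% and 1.93% of 9481 genes. The exception was Hnrnpa3, at 24.1, 15.5 and 13.1 TPM in the second, -1.38 on the centred log2 scale (adjusted p = 0.00445). It would thus not lead the set there: Hnrnpk (55.6, 44.2 and 35.4 TPM), Hnrnpf (58.6, 40.1 and 31.1 TPM) and Hnrnpa2b1 (50.5, 39.2 and 33.0 TPM) were above it in every library.

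Many members have processed pseudogenes that share their sequence, and reads from both can be assigned to either. A search of annotated pseudogene transcripts at 90% identity or more over at least 200 bases found 76 copies of 15 members. Hnrnpa3 had 33 of them, and Gm5641 was identical to it over 1080 bases. Gm5641 was listed at 0 TPM in every library in the first quantification and at 3.75, 7.07 and 4.25 TPM in the second. Hnrnpk had the opposite pattern: its copy Gm7964, 99.2% identical over 1378 bases, was at 8.58, 7.97 and 8.29 TPM in the first and at 0.0115, 0 and 0.0242 TPM in the second. Hnrnpa1 had 15 copies, which together reached 0.72 ± 0.195 TPM in the first and 2.55 ± 0.152 TPM in the second. The levels of Hnrnpa3, Hnrnpk and Hnrnpa1 are therefore uncertain. Exons of 11 members share bases with a gene on the opposite strand, among them 804 bases of Hnrnpu with Cox20 (11.0, 8.04 and 7.81 TPM), none of which lie in Hnrnpu-206 or Hnrnpu-201. Exons of 4 members share bases with a gene on the same strand, the most being 1169 bases of Hnrnpm with March2 (13.7, 10.9 and 10.8 TPM). None of these lie in Hnrnpm-213.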

How the data were processed

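The submitters deposited, for each of the 3 libraries, a gene and a transcript table of a first quantification and a transcript table of a second. Per the file headers, the authors' first tables give expected counts, TPM, FPKM and lower and upper bounds of TPM, a signal that is never negative, and the second give estimated counts and TPM. The build is mm10 with GENCODE M21, per the deposited text descriptions, and no source used here names the quantification tools. Transcript classes came from the annotation. Transcripts were summed by gene symbol, 1 gene with a matching prefix is not reported here, and the members and gene lists were chosen with earlier results of these data known.

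Levels were tested as log2(TPM + 0.1) minus the log2 reference median for genes that averaged 0.1 TPM or more. Shares were tested for genes of at least 1 TPM in every library, each with limma 3.58.1 as a one-sample moderated test. Library variation used edgeR 4.0.16 (goodness of fit, TMM, at least 10 counts in every library) in R 4.3.3, and DESeq2 1.42.0 size factors were an alternative. P-values were adjusted by Benjamini-Hochberg over all genes tested. Fold changes on the log2(TPM + 0.1) scale understate low genes. Copies were found with minimap2 2.31-r1302. The scripts were tested on simulated data. Alternatives were other references, pseudocounts, filters, units, share definitions, the second quantification and leaving out each library.

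Values in every library are given for the 4 SR and 6 hnRNP genes of highest mean TPM, all kinases, both Tra2 genes, members called for a share or for variation, and the 3 lowest. Srsf11 and Srsf6 were added after their values were seen. Printed sequences are those of GENCODE M21 transcripts and of mm10.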

Additional observations from a re-analysis of the deposited data

How the results depend on the processing

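No paired analysis was possible because all 3 libraries belong to 1 group. Of the alternatives tried, 310 values of single genes kept their direction and their side of the threshold, 48 lost a call, 11 gained one and 5 changed sign. The sign changed at a reference of at least 5 TPM for the levels of Clk1 (-0.0075), Srsf6 (-0.0087), Srsf9 (-0.014) and Hnrnpll (-0.016), and for the retained-intron share of Srsf1 (-0.95 points) when only transcripts with at least 200 bases outside coding exons counted, an alternative added after seeing the data. Calls above the reference fell from 23 to 13 with the reference of at least 5 TPM, were 16 in the second quantification, 19 with a pseudocount of 1 TPM and 28 by FPKM, and were 20 to 23 when 1 library was left out. Calls below it went from 1 to 3 with that reference and to 3 in the second quantification, and were 1 to 2 with 1 library left out, the higher number without replicate 3. Retained-intron calls, 5 in all, were 3 in the second quantification, 3 at a gene total of at least 5 TPM, 2 by expected counts and 1 with the 200-base rule. They were 3 to 7 with 1 library left out, lowest without replicate 3. Decay calls, 9 in all, were 4 without replicate 2, 4 without replicate 3 and 7 without replicate 1, a design with fewer samples. Members lower in the second quantification numbered 32 when the ratio was not centred, in place of 1. The median of the members' mean TPM was 7.04 in the second quantification and 17.3 in the first, and list means were 18.8 TPM for SR and 42.2 TPM for hnRNP genes in place of medians of 13.5 and 30.6 TPM. Transcript shares are estimates from reads that transcripts share, so short or overlapping transcripts of a few TPM carry wide bounds.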
